A study of Rattus norvegicus with 2 samples.

Results

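Endothelial cells (ECs) of the rat carotid artery that held no UMI of Plvap and no UMI of Emcn were selected on measured counts, and 148 such cells were found, of which 42 came from the control group and 106 from the case group. A UMI is a molecular tag that counts 1 captured RNA molecule. A cell was taken as an EC when it held at least 4 UMIs of Cdh5, Cldn5, Sox17, Vwf and Kdr together, from at least 2 of these 5 genes. UMIs of 6 smooth muscle genes (Acta2, Tagln, Myl9, Myh11, Cnn1, Cald1) had to stay under 1% of the cell's UMIs, and those of 4 fibroblast genes (Col1a1, Col3a1, Dcn, Lum) under 1.5%. The cells were 148 of 239 ECs found by this rule, of 7191 cells with at least 1000 UMIs and at most 20% mitochondrial UMIs, and of 8977 barcodes in all. Levels of the genes named in the rule are therefore given as a description.

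The study profiled single cells of carotid arteries of Sprague-Dawley (SD) rats after balloon injury, a model of the restenosis that follows stenting. The control group was 1 library of untreated left arteries, and the case group 1 library of balloon-injured right arteries of the same 2 rats, whose arteries were pooled in each library. Rats were male and 8 weeks old at surgery in the study's methods, arteries were taken 28 days later, and the labels give an age of 12 weeks for both groups. Cells were freed from the vessel wall with trypsin and collagenase and captured in droplets (10x Genomics). With 1 library per group there were no replicates, so no difference below has a test, injury cannot be told apart from artery side or library, and every interval covers counting error only.

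ECs line the lumen of the artery and also form the small vessels of the adventitia. Plvap encodes the protein of the diaphragms that span endothelial fenestrae and caveolae, and Emcn encodes endomucin, a sialomucin of capillary and venous endothelium. Both are typical of small-vessel and venous ECs and are low in the endothelium of large arteries, where Gja5, the gap junction protein connexin 40, and targets of Notch signalling are typical. Balloon injury strips the endothelium of the treated segment, which is then covered again by ECs growing in from its edges and branches.

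The label EC held up against markers the rule did not use. Tie1 and Tek, the angiopoietin receptor pair, stood at 339.9 and 462 CPM in control and at 402 and 429.6 CPM in case cells without Plvap and Emcn, where CPM is UMIs per 1000000 UMIs summed over the cells. In all other kept cells of the same libraries Tie1 reached 1.71 and 8.71 CPM. Ptprb, the endothelial receptor phosphatase VE-PTP, was found in 40 of 42 control and 81 of 106 case cells. The 15 genes highest against all other kept cells in both libraries were Vwf, Cytl1, Gja5, Pkhd1l1, Ptprb, F5, Tie1, Mmrn2, Icam2, Podxl, Msr1, Tek, Nsg1, Dkk2 and Cldn5, of which Vwf and Cldn5 belong to the rule. Pecam1 was not analysed here. Of the rule's genes, Vwf was found in 41 control and 97 case cells, Cdh5 in 33 and 88, Cldn5 in 31 and 48 and Sox17 in 28 and 67. Kdr, the main VEGF receptor, was found in only 1 control and 6 case cells.

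Of the marker lists for other cell types that the rule did not use, those for T cells and macrophages were at or near 0 in the cells without Plvap and Emcn. The 4 T cell markers measured had 0 UMIs in both libraries, a count of 0 that allows up to 3 UMIs in each. Macrophage markers summed to 11.3 CPM in control and 15.4 CPM in case cells, against 205 and 335 CPM in all other kept cells. Schwann cell markers summed to 2.83 and 6.85 CPM, against 57.6 and 77.6 CPM, and platelet and red cell markers were found in 6 control and 7 case cells. Mesothelial markers were higher than in the other cells, at 11.3 CPM in 3 control cells and 32.5 CPM in 13 case cells against 7.94 and 8.60 CPM. Pericyte markers summed to 337 CPM in control and 152 CPM in case cells, against 567 and 620 CPM in all other kept cells. They had UMIs in 31 of 42 control and 45 of 106 case cells. Smooth muscle and fibroblast markers were present, and most of their listed genes had been limited by the rule, so their sums are a description. Smooth muscle markers summed to 1444 and 1275 CPM, with UMIs in 42 of 42 control and 104 of 106 case cells. Fibroblast markers summed to 1592 CPM in control and 534 CPM in case cells, with UMIs in 41 of 42 and 78 of 106 cells. The part of fibroblast RNA in the results below was not tested.

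Control cells held more UMIs per cell. The 42 control cells held 353088 UMIs with a median of 7614 per cell (range 2433 to 19247), and the 106 case cells held 584229 with a median of 4836.5 (range 1187 to 16240). The median number of genes per cell was 2321.5 in control and 1583.5 in case cells, and mitochondrial genes held a median of 3.02% and 3.52% of UMIs. Of 21 barcode sequences found in both libraries, 1 belonged to a cell without Plvap and Emcn.

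ECs without Plvap and Emcn made up a larger share of ECs in the control group. They were 42 of 53 control ECs, 79.2% (95% Clopper-Pearson interval 65.9 to 89.2), and 106 of 186 case ECs, 57.0% (49.5 to 64.2). Cells with fewer UMIs miss a gene more often, so the share was also computed at a common depth, where each EC kept 1000 of its UMIs. The expected share was then 90.7% in control and 73.4% in case ECs. Among all kept cells the cells without Plvap and Emcn took 1.87% (1.35 to 2.52) in control and 2.14% (1.76 to 2.59) in case. The limits on UMIs and mitochondrial UMIs kept 67.6% of control and 87.5% of case barcodes, and of all barcodes the cells were 1.26% (0.913 to 1.71) and 1.87% (1.54 to 2.26). ECs of both kinds were 2.36% (1.77 to 3.08) of control and 3.76% (3.25 to 4.33) of case cells. In both denominators the intervals for cells without Plvap and Emcn overlapped. The ECs with Plvap or Emcn numbered 11 in control and 80 in case, which was 0.490% and 1.62% of kept cells.

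**Figure D1:**
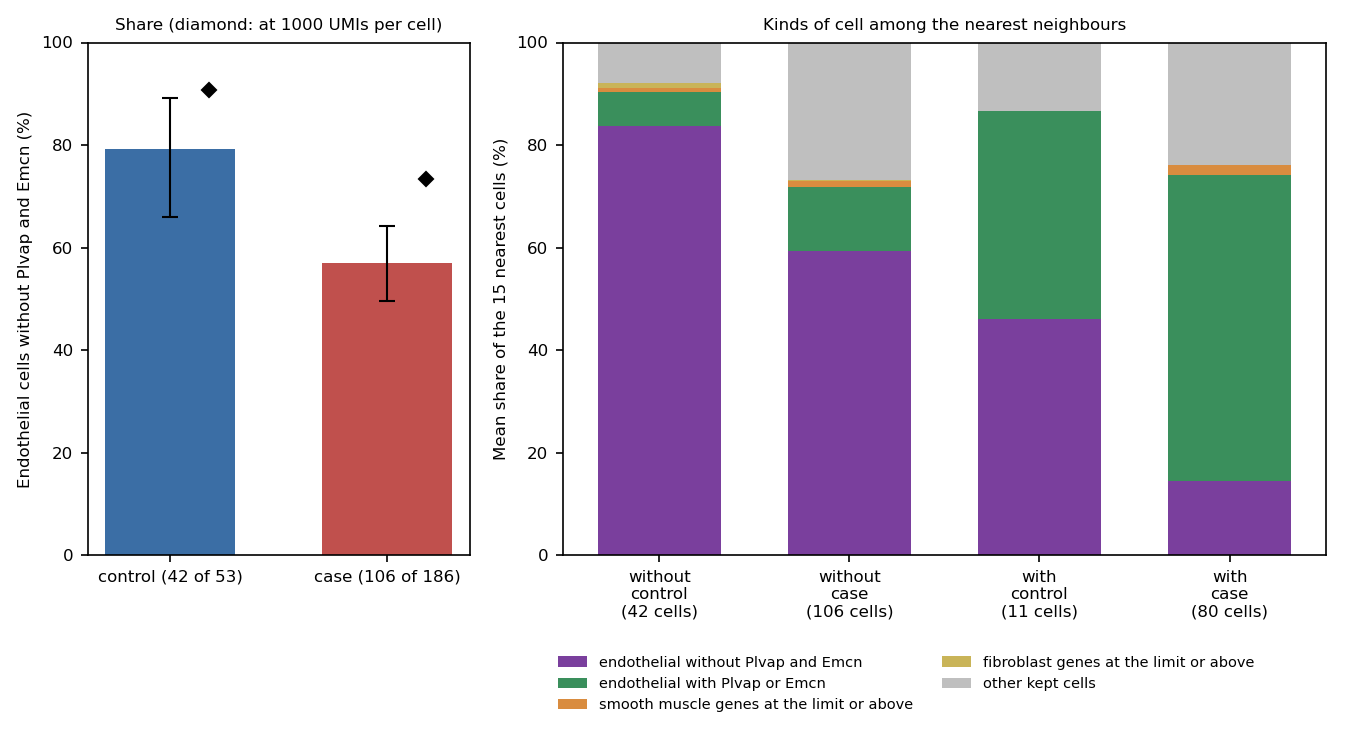
Left, share of ECs (%) without Plvap and Emcn in each library, with 95% Clopper-Pearson intervals as bars and the expected share at 1000 UMIs per cell as diamonds, 79.2% in control and 57.0% in case. Right, mean share (%) of each kind of cell among the 15 nearest neighbours of ECs without or with Plvap or Emcn, computed without the genes of the rule. Neighbours of ECs without Plvap and Emcn were mostly cells of the same kind in both libraries.

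Nearest neighbours were taken in 30 principal components of 2000 variable genes, with the 17 genes of the rule left out. Of the 15 neighbours of a control cell without Plvap and Emcn, 83.8% on average were of the same kind and 6.51% were ECs with Plvap or Emcn. In case cells the means were 59.2% and 12.5%, and 26.9% of their neighbours were cells that met neither the EC rule nor a muscle or fibroblast limit. More than 50% of the neighbours were ECs for 41 of 42 control and 85 of 106 case cells. Only 1 cell in each library had no EC among its neighbours. The bars of neighbour kinds also show the ECs with Plvap or Emcn, whose neighbours were of their own kind for 59.6% in case but for only 40.6% in control, where 46.1% were ECs without Plvap and Emcn.

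Many cells lay next to the rule's limit on the number of genes. Exactly 2 of the 5 EC genes, the minimum, were found in 10 control and 37 case cells, and 3 control and 13 case cells missed only because their 4 or more UMIs came from 1 gene. Exactly 4 UMIs of the 5 EC genes were held by 1 control and 8 case cells, and 2 control and 11 case cells missed only by having 3. Of ECs just outside the limit on Plvap and Emcn, 5 of 11 control and 12 of 80 case cells held a single UMI of these genes. The highest share of smooth muscle UMIs was 0.370% in control and 0.782% in case cells, and the highest share of fibroblast UMIs 0.885% and 0.426%, all below the limits.

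In both libraries ECs without Plvap and Emcn held more Gja5, Hey2, Mgp, Cgnl1, Cytl1 and Fn1 than ECs with Plvap or Emcn. They held less Fabp4, Apoe, Olr1 and Abca1. Genes were compared when the mean of the 2 kinds of EC reached 100 CPM, with 20 UMIs or more between them, in each library, which left 1202 genes besides Plvap and Emcn. Of these, 62 (5.16%) were at least 2-fold higher without Plvap and Emcn in both libraries, and 101 (8.4%) at least 2-fold lower in both. In smaller steps, 343 genes were higher and 558 lower in both libraries, and 301 moved in opposite directions. The median log2 ratio was -0.18 in control and -0.16 in case. When both medians were set to 0, the counts became 87 higher and 66 lower. The control group of this comparison held only 11 cells with Plvap or Emcn and 84547 UMIs, and the ratios describe a division made on these same cells.

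Gja5, Hey2 and Mgp of the arterial list were higher in the cells without Plvap and Emcn. Gja5, the connexin 40 gene, stood at 439 CPM in control cells (95% Poisson interval 373 to 514) and 241 CPM in case cells (203 to 285), against 59.1 and 35.8 CPM in ECs with Plvap or Emcn. Its log2 ratio was 2.89 (1.64 to 4.54) in control and 2.75 (1.96 to 3.66) in case. At 1000 UMIs per cell a Gja5 UMI was expected in 27.1% of control and 13.3% of case cells, and in 0.110% and 0.264% of all other kept cells, while the median depth over all kept cells was 10906.5 and 5174 UMIs. Hey2, a Notch target that marks arteries, stood at 232 and 221 CPM against 94.6 and 51.1 CPM, with log2 ratios of 1.29 (0.25 to 2.56) and 2.11 (1.43 to 2.87). Mgp, the calcification inhibitor matrix Gla protein, stood at 8366 and 3042 CPM against 1289 and 1451 CPM, with ratios of 2.70 (2.42 to 2.99) and 1.07 (0.93 to 1.21). Of 22 arterial genes listed only 10 could be compared, and Gja5 and Hey2 reached the required level only through the cells without Plvap and Emcn, so no count over this list is drawn. Sox7, an endothelial transcription factor of the list, had a log2 ratio of -1.96 (-2.75 to -1.17) in control and 0.07 (-0.54 to 0.69) in case. Dll4, an arterial Notch ligand, and Sema3g had at most 22 UMIs in any group and could not be compared.

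Dkk2, Cytl1, Cgnl1, Msr1, Efemp1, Bpgm and Gask1b were also higher in the cells without Plvap and Emcn. Of the junction list, Gja5 and Cgnl1 were past 2-fold in both libraries. Gja5 reached the required level only through the cells without Plvap and Emcn, so no count over the junction list is drawn. The same held for Dkk2 and Bpgm, at 11.8 and 35.5 CPM in control and 61.3 and 38.3 CPM in case ECs with Plvap or Emcn. Dkk2, a secreted Wnt modulator, stood at 283 CPM in control and 389 CPM in case cells, against 1 UMI and 24 UMIs (61.3 CPM) in ECs with Plvap or Emcn. Cytl1, which encodes a secreted cytokine-like protein, was found in 41 of 42 control cells at 1733 CPM and in 81 of 106 case cells at 1259.8 CPM. Its log2 ratio was 2.02 (1.54 to 2.55) in control and 2.14 (1.85 to 2.44) in case. Cgnl1, the tight junction protein paracingulin, was higher by 1.94 (1.38 to 2.56) and 3.26 (2.80 to 3.76) on the log2 scale, and Msr1, a scavenger receptor, by 1.95 and 2.57. Efemp1, a fibulin of the matrix, had log2 ratios of 2.92 and 2.62, Bpgm, bisphosphoglycerate mutase, 2.23 and 2.08, and Gask1b 1.97 and 2.45. The non-coding RNAs Vault and RNase_MRP had log2 ratios of 2.46 and 3.48 in control and 2.10 and 2.06 in case.

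Fn1, Sparc, Col8a1 and S100a4 were also higher in the cells without Plvap and Emcn. Fn1, which encodes fibronectin, stood at 4551 CPM in control and 3772 CPM in case cells, against 1431 and 429 CPM in ECs with Plvap or Emcn, log2 ratios of 1.67 (1.40 to 1.95) and 3.14 (2.91 to 3.37). It was found in 42 of 42 control and 97 of 106 case cells. Sparc, a collagen-binding glycoprotein, had log2 ratios of 1.69 and 1.53, Col8a1, a short-chain collagen, of 2.67 and 1.86, and the calcium-binding protein gene S100a4 of 1.80 and 2.31. Of 23 mesenchymal genes outside the rule, 9 could be compared, 6 were higher in both libraries and 1 was lower in both, beside 343 and 558 of all 1202 genes. The 3 past 2-fold, beside 5.16% of all genes, were Fn1, S100a4 and Col8a1. This list was named for genes of mesenchymal cells, and Fn1 and Col8a1 are also made by ECs. Of the 4 basement membrane genes that could be compared, 2 were higher in both libraries, with only Sparc past 2-fold, and 1 was lower in both, set beside the same shares over all genes. Fibroblast markers were also higher in the cells without Plvap and Emcn, with sums of 1592 against 473 CPM in control and 534 against 386 CPM in case. Col1a1, Col3a1, Dcn and Lum of this list were limited by the rule, so the sums are a description and no count over the list is drawn. The part of fibroblast RNA in the levels of these matrix and mesenchymal genes was not tested.

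**Figure D2:**
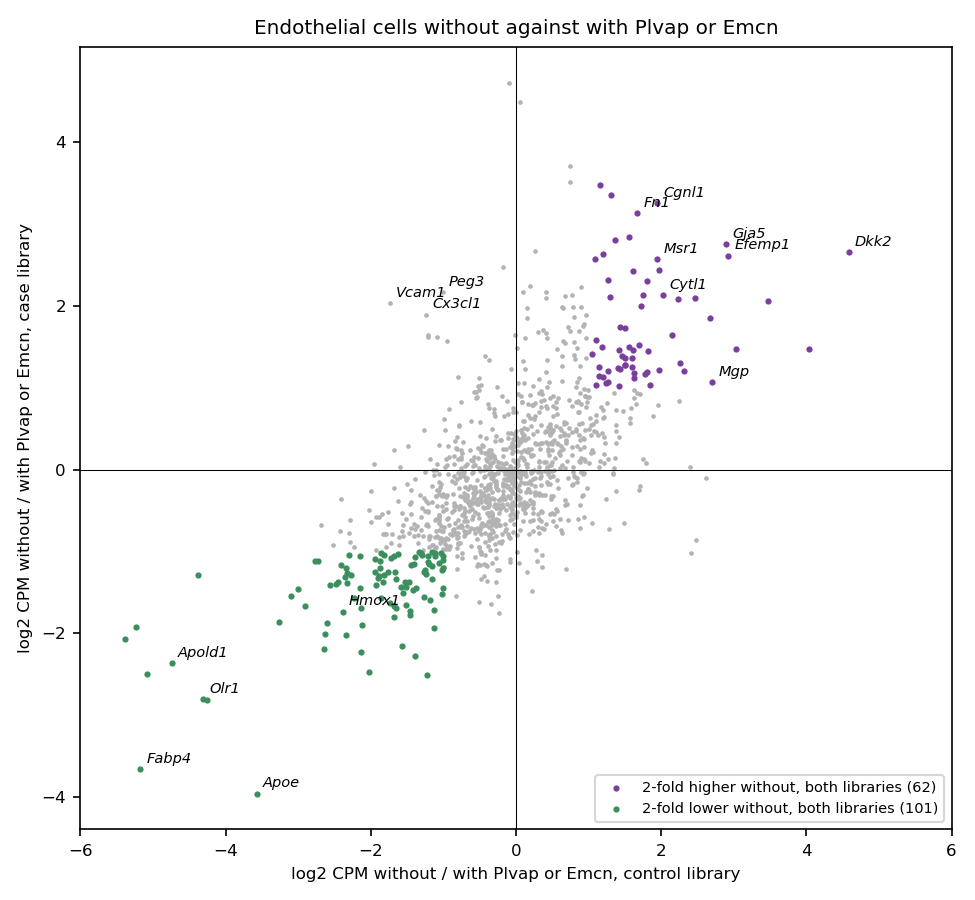
Each point is 1 of 1202 genes, with the log2 ratio of CPM in ECs without over ECs with Plvap or Emcn in the control library (x axis) and the case library (y axis). Coloured points are at least 2-fold apart in the same direction in both libraries, 62 higher and 101 lower without Plvap and Emcn, with Gja5 and Cytl1 among the first and Fabp4 and Apoe among the second.

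Fabp4, Apoe, Olr1 and Abca1, which handle lipids, were lower in the cells without Plvap and Emcn. Fabp4, a fatty acid binding protein of capillary ECs, stood at 25.5 CPM in control and 111 CPM in case cells, against 923 and 1405 CPM in ECs with Plvap or Emcn. All 9 control UMIs of Fabp4 came from 1 cell. Apoe, which carries lipids, stood at 113 and 168 CPM against 1348 and 2604 CPM, and Olr1, the receptor for oxidised LDL, at 11.3 and 61.6 against 225 and 429 CPM. Abca1, a cholesterol exporter, stood at 65.1 and 179.7 CPM against 331 and 728 CPM. In control, Fabp4, Olr1 and Abca1 reached the level needed for a comparison only through the ECs with Plvap or Emcn, so no count over the lipid list is drawn. The other genes with the largest gaps were Atp8b1 (log2 ratios -5.09 and -2.50), Apold1 (-4.74 and -2.36), Rsad2 (-5.38 and -2.07), Depp1 (-4.25 and -2.81), Ccng1 (-2.65 and -2.19), Clec14a (-2.14 and -2.22) and Ndrg1 (-2.03 and -2.47). Apold1 (14.2 and 82.2 CPM) and Depp1 (19.8 and 34.2 CPM) also reached the level needed only through the ECs with Plvap or Emcn. Apart from the 2 genes of the rule, only Fabp4 and Selp of the capillary and venous list could be compared. The list summed to 368 and 429.6 CPM, against 1277 and 2297 CPM in ECs with Plvap or Emcn, of which Fabp4 alone held 923 and 1405 CPM. Selp, the P-selectin gene, was not lower, at 215 and 187 CPM against 142 and 184 CPM.

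Between the groups, ECs without Plvap and Emcn held higher levels of Hmox1, Zfand2a, Esm1 and the chemokine genes Cxcl1, Ccl2 and Cx3cl1 in the case library, and lower levels of Mgp, Icam2, Ramp2 and class I antigen presentation genes. No Cytl1 UMI was found in 1 of 42 control and 25 of 106 case cells, nor in 58 of 80 case ECs with Plvap or Emcn. Cells whose Plvap or Emcn RNA was missed would be counted here, and their part in these differences was not tested. The required level, an average of 100 CPM or more and 20 UMIs or more over the 2 libraries, was met by 1407 genes, whose median log2 ratio of case over control was -0.09. Of these genes, 72 (5.12%) were at least 2-fold higher in case and 99 (7.04%) at least 2-fold lower. These counts moved with the scaling of the libraries. TMM factors raised every log2 ratio by 0.24 and turned the counts into 139 higher and 56 lower, and setting the median to 0 gave 97 higher and 79 lower. A log2 ratio near 0 in either direction was thus within the range of the scaling.

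The same genes were then read in other cells of the same libraries. In ECs with Plvap or Emcn, 54 of the 72 genes higher in case were also higher, 23 by at least 2-fold, and 81 of the 99 lower in case were also lower, 40 by at least 2-fold. Over all 1407 genes these ECs, with only 11 control cells, had 655 higher and 137 of them by at least 2-fold, and 752 lower and 207 by at least 2-fold. Of the 72 genes higher in case, 61 were also higher in all other kept cells of the case library and 15 by at least 2-fold. Of the 99 lower in case, 89 were lower there too and 15 by at least 2-fold. Over all 1407 genes, 618 were higher in the other kept cells, 40 by at least 2-fold, and 789 lower, 24 by at least 2-fold. AABR07057190.1, at 48.1 and 249.9 CPM in cells without Plvap and Emcn, went from 28.2 to 195 CPM in the other cells. The cell with most UMIs held a median of 7.12% of the case UMIs of the 72 genes and 11.2% of the control UMIs of the 99, and over 50% for 1 and 2 of them.

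**Figure D3:**
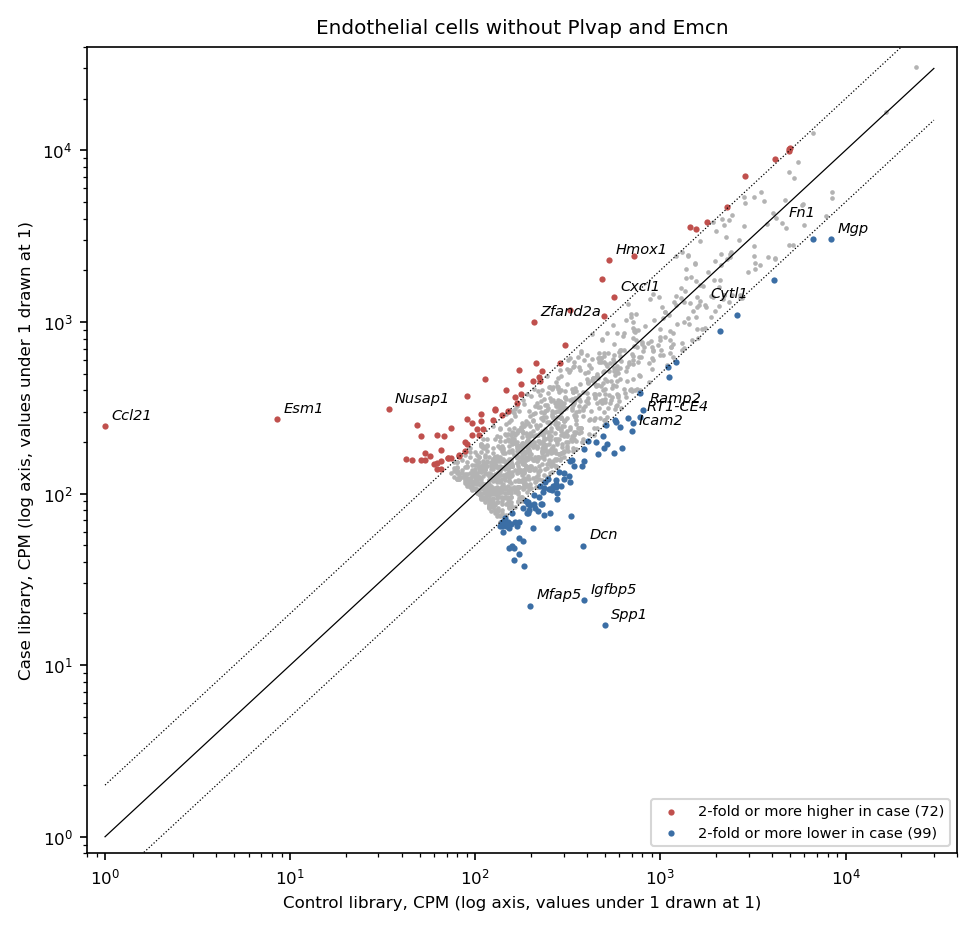
Each point is 1 of 1407 genes in ECs without Plvap and Emcn, with CPM in the control library (x axis) and the case library (y axis), both on log axes, and dotted lines at 2-fold. Coloured are the 72 genes at least 2-fold higher and the 99 at least 2-fold lower in case. Esm1, Nusap1 and Ccl21 lie far above the line, and Spp1, Igfbp5, Dcn and Mfap5 far below it.

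Pan-endothelial genes lay on both sides of the line. Of 26 listed, 15 could be compared, 1 was at least 2-fold higher in case and 2 at least 2-fold lower, near the 5.12% and 7.04% of all genes, with a median log2 ratio of 0.03. Flt1, a decoy receptor for VEGF, stood at 102 CPM in control (71.4 to 141) and 236 CPM in case (198 to 279), a log2 ratio of 1.21 (0.67 to 1.78) that became 0.80 when cells needed 6 marker UMIs from 3 genes. Icam2, an adhesion molecule of resting endothelium, stood at 702 CPM in control and 231 CPM in case, a log2 ratio of -1.60 (-1.92 to -1.30). It was found in 39 of 42 control and 58 of 106 case cells, and in ECs with Plvap or Emcn it also stood lower in case, at 260.2 and 69.0 CPM. Ramp2, a partner of the adrenomedullin receptor, went from 804 to 308 CPM, a log2 ratio of -1.38 (-1.66 to -1.11). Mmrn2, Ptprb and Tek had ratios between -0.10 and 0.07. Among the rule's genes Cdh5, the VE-cadherin gene, stood at 229 and 517 CPM, and Cldn5, a tight junction claudin, at 312 and 233 CPM.

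Arterial genes were 0 higher and 1 lower past 2-fold among the 11 that could be compared, beside 5.12% and 7.04% over all genes. The 1 gene was Mgp, at 8366 CPM in control (8067 to 8673) and 3042 CPM in case (2902 to 3186), a log2 ratio of -1.46. It was found in all 42 control cells and in 91 of 106 case cells, and the median over cells was 55.6 and 8.80 UMIs per 10000. In the other kept cells Mgp went from 2739.8 to 2149 CPM, and in ECs with Plvap or Emcn from 1289 to 1451 CPM. Gja5 had a ratio of -0.86 (-1.20 to -0.52) and was found in 32 of 42 control and 36 of 106 case cells. Efnb2, the arterial ephrin, had a ratio of 0.55 (0.16 to 0.95). The list's median was -0.18 and became 0.06 under TMM scaling.

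Hmox1, Zfand2a, Txnrd1, Tiparp and Nars were at least 2-fold higher in case, and belong to no common list. Hmox1, which encodes haem oxygenase 1, stood at 527 CPM in control (454 to 608) and 2297 CPM in case (2176 to 2423), a log2 ratio of 2.12 (1.90 to 2.35). The case cells ranged widely, since 24 of 106 held no Hmox1 UMI while the highest held 240. The 5 highest cells held 60.8% of the control and 44.0% of the case UMIs. The median over cells was 2.75 in control and 4.92 UMIs per 10000 in case, and the upper quartile 4.96 and 24.1. The levels of 527 and 2297 CPM lay under those of ECs with Plvap or Emcn, at 2756 and 7640.1 CPM, and under the 3858 CPM of all other control cells. Txnrd1, thioredoxin reductase, went from 51.0 to 217 CPM. Zfand2a, induced by arsenite and heat, went from 207 to 993 CPM (log2 ratio 2.26, 1.91 to 2.63), Tiparp, an ADP-ribosyltransferase, from 90.6 to 369.7, and Nars, the asparaginyl-tRNA synthetase, from 113 to 467. In the other kept cells the log2 ratios of these last 3 genes were 0.43, 0.05 and 0.58. Of the 8 heat shock genes that could be compared, 0 were past 2-fold, where 5.12% of all genes were higher and 7.04% lower, and their median of -0.09 turned positive under TMM scaling. The 14 listed immediate early genes that could be compared had a median of -0.51, with Fos at 5222 and 2807 CPM, and Myc, at 286 and 575 CPM, was the 1 member past 2-fold. Egr2, an immediate early transcription factor outside the list, was lower in case, at 161 and 41.1 CPM.

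**Figure D4:**
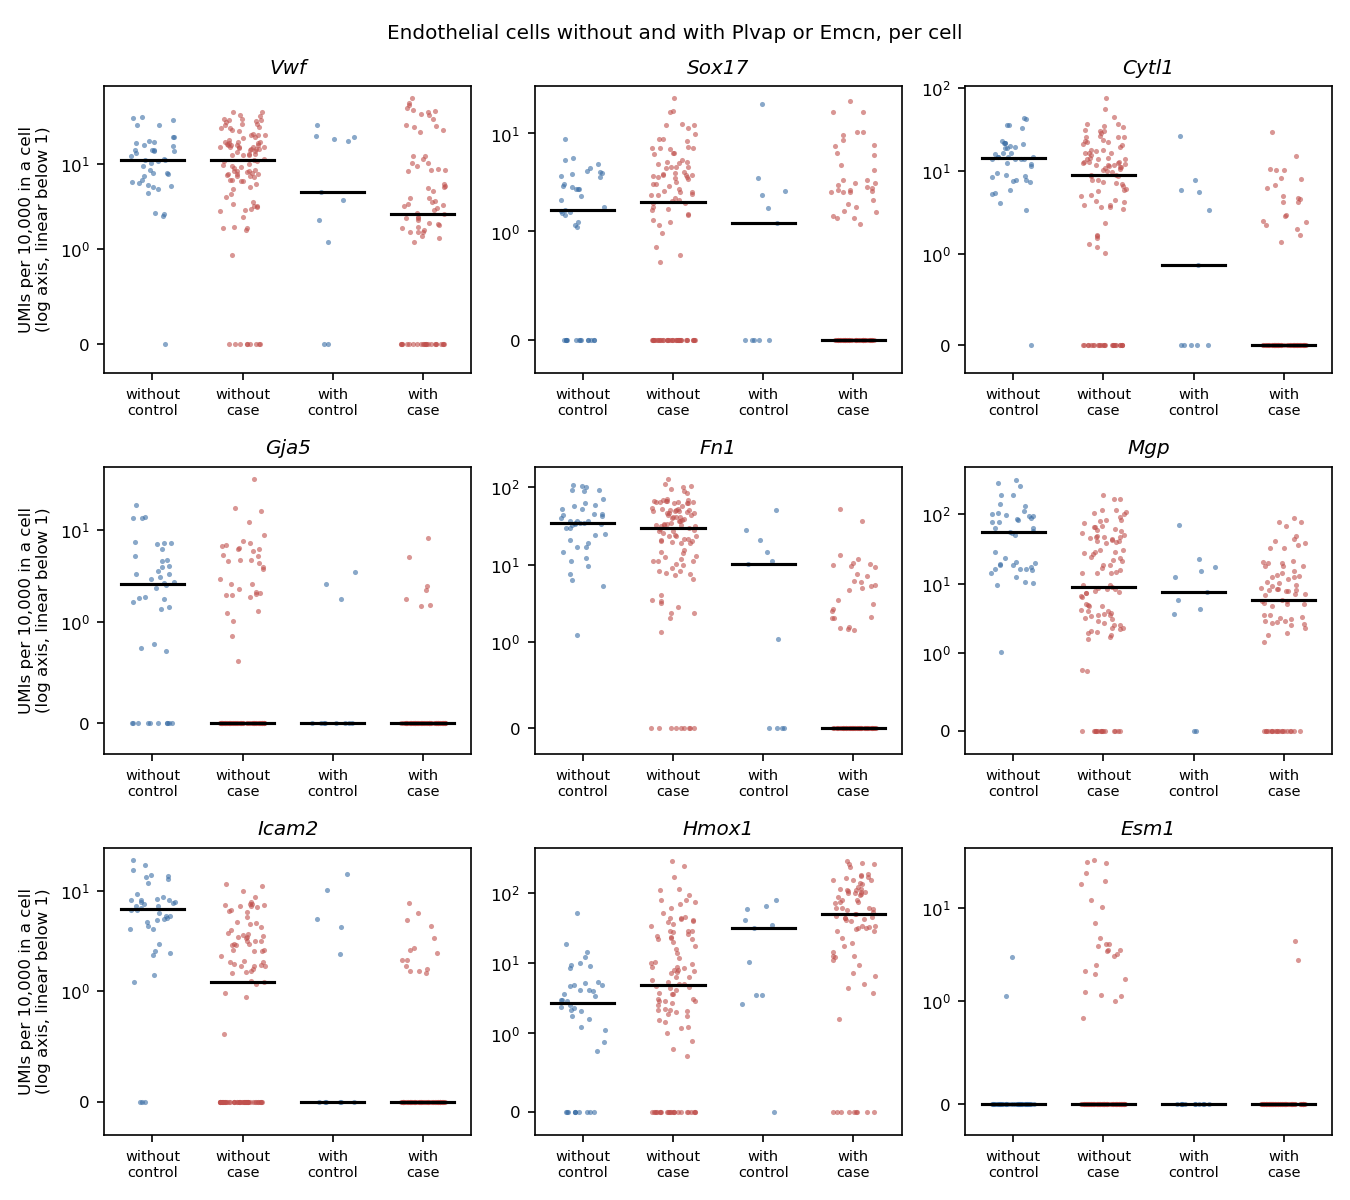
UMIs per 10000 of 9 genes in each EC without (left pair) or with (right pair) Plvap or Emcn, by library, on an axis that is logarithmic above 1 and linear below, with medians as bars. Vwf and Sox17 belong to the rule. Cytl1, Gja5, Fn1 and Mgp were spread higher in cells without Plvap and Emcn, Hmox1 lower, and Esm1 was found in 27 of 106 case cells without Plvap and Emcn and in 2 of 42 control cells.

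The chemokine genes Cxcl1, Ccl2 and Cx3cl1 were higher in case cells, whereas Icam2 was lower. Of 14 adhesion and inflammatory genes listed, 9 could be compared, but Ccl2 reached the required level only through its case level, so no count over the list is drawn. Over all genes 5.12% were at least 2-fold higher and 7.04% at least 2-fold lower. Cxcl1, which recruits neutrophils, stood at 561 CPM in control and 1402 CPM in case, a log2 ratio of 1.32 (1.10 to 1.55). Ccl2, which recruits monocytes, stood at 90.6 and 272 CPM, a ratio of 1.59 (1.03 to 2.18). Cx3cl1, the membrane-bound chemokine fractalkine, stood at 110.5 and 238 CPM, a ratio of 1.11 (0.59 to 1.66). In all other kept cells Cxcl1 was lower in case, from 1569.6 to 815 CPM, and so was Ccl2, from 1086 to 747 CPM. Ccl2 rested on few cells, 6 in control and 18 in case. The leukocyte receptors Icam1 and Vcam1 had ratios of 0.75 (0.50 to 1.00) and 0.70 (0.39 to 1.03). With cells weighted equally, the ratios of Cxcl1 and Cx3cl1 were 0.89 and 0.75, and with 6 marker UMIs required that of Cx3cl1 was 0.87.

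Esm1, Adm and Col18a1 were higher in case cells. Of 10 tip cell genes only Esm1 and Adm reached the level needed for a comparison, and Esm1 did so only through its case level, so no count over this list is drawn. Esm1, the proteoglycan endocan of growing vessel tips, had 3 UMIs in 2 control cells and 158 UMIs in 27 case cells, 270.4 CPM (229.9 to 316), a log2 ratio of 4.99 (3.42 to 7.29). The 5 highest cells held 60.8% of the case UMIs. At 1000 UMIs per cell an Esm1 UMI was expected in 0.926% of control and 11.4% of case cells, and in 0.696% and 1.09% of all other kept cells. ECs with Plvap or Emcn held 0 Esm1 UMIs in control and 6 in case. Of the 27 case cells with Esm1, 9 also held Gja5 and 20 held Cytl1, shares near those over all 106 case cells, where 36 held Gja5 and 81 held Cytl1. Adm, the vasodilator adrenomedullin, went from 127 to 309.8 CPM, a log2 ratio of 1.28 (0.80 to 1.79). The ratio was only 0.35 when cells needed 6 marker UMIs from 3 genes. In ECs with Plvap or Emcn Adm stood higher in both libraries, at 792 CPM in control and 1249.5 CPM in case. Col18a1, the collagen that yields endostatin, went from 108 to 264 CPM (log2 ratio 1.29, 0.77 to 1.84). Plaur, another tip cell gene, had 7 and 73 UMIs.

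Class I antigen presentation genes were lower in case cells, and also in the rest of the wall. Of the 4 genes of the list that could be compared, 3 were at least 2-fold lower, beside 7.04% of all genes. They were RT1-CE4 (776 and 279 CPM), RT1-A2 (566 and 267 CPM) and RT1-A1 (331 and 157 CPM). B2m, the common light chain, stood at 5953 and 3675 CPM, and the list's median log2 ratio was -1.08. In all other kept cells the ratios of the 3 RT1 genes were -1.30, -0.82 and -1.07. RT1 genes are near copies of each other, so reads may have been split between them. With TMM scaling RT1-A1 and RT1-A2 no longer differed by 2-fold.

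In the TGF-beta and BMP, junction, Notch, vasomotor and cell cycle lists at most 1 gene each way was past 2-fold, beside 5.12% higher and 7.04% lower over all genes. Of 8 genes of the TGF-beta and BMP pathway, Id1, a BMP target, was lower in case (773 and 383 CPM), a log2 ratio of -1.01 (-1.27 to -0.75), with a list median of -0.40. Among 8 junction genes F11r, a junctional adhesion molecule, was lower (224 and 111 CPM), a ratio of -1.01 (-1.50 to -0.52). Both ratios were at the edge of 2-fold and became -0.77 under TMM scaling. None of 5 Notch genes differed by 2-fold, and their median of -0.07 turned positive under TMM scaling. Thbd and Procr, which restrain clotting on the endothelium, had ratios of -0.25 and 0.15. Among 8 vasomotor genes Adm was higher and Ramp2 lower past 2-fold, while Edn1, endothelin 1, stood at 280.4 and 239.6 CPM and Nos3, the endothelial nitric oxide synthase, at 201 and 144 CPM. Klf4, a flow-responsive factor, stood at 3787 and 3723 CPM. Of 4 cell cycle genes 0 differed by 2-fold, and Top2a and Mki67, which mark dividing cells, had 0 and 6 UMIs in control and 2 and 8 in case.

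**Figure D5:**
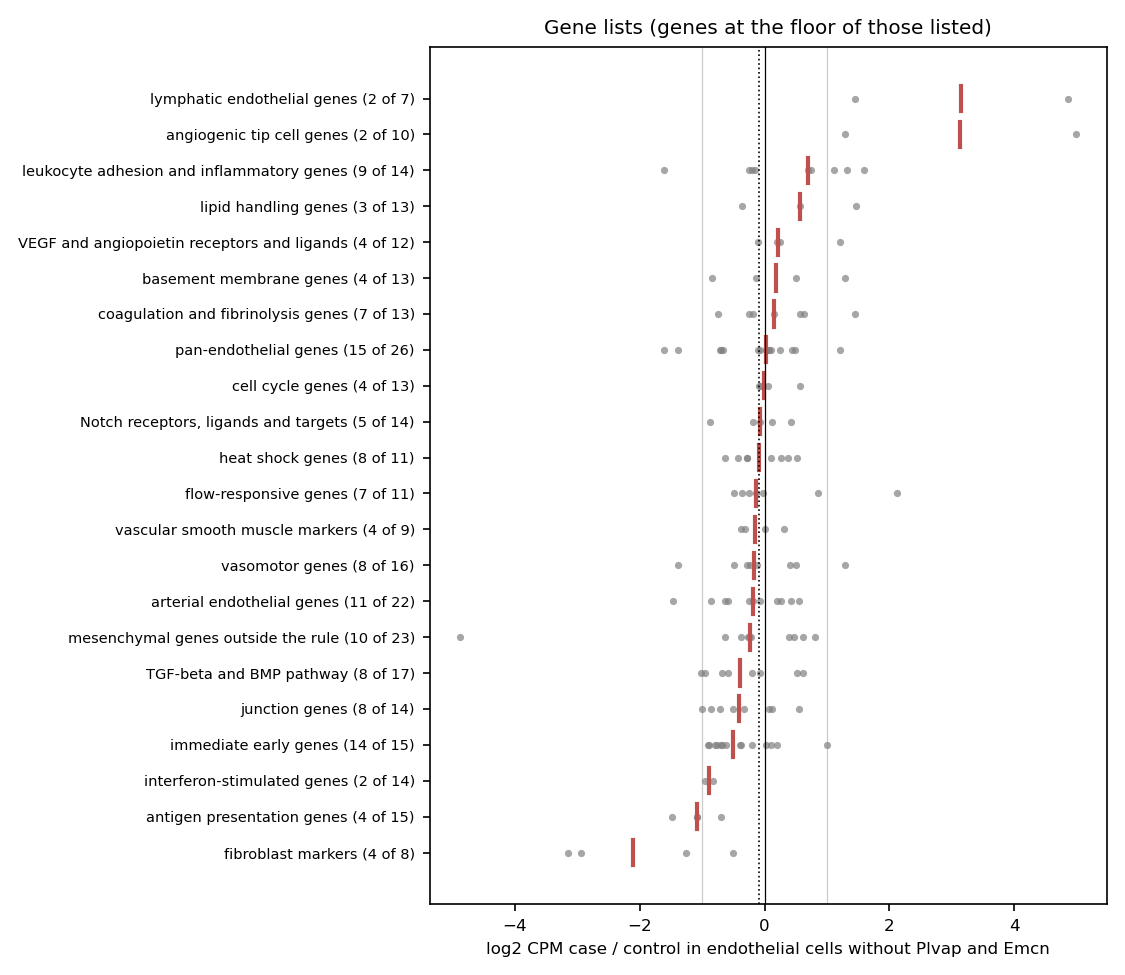
Log2 ratio of case over control in ECs without Plvap and Emcn (x axis) for each gene list with at least 2 genes at the required level (rows, with the number compared and listed). Grey points are genes, red bars list medians, the dotted line the median of all 1407 genes at -0.09 and pale lines 2-fold. Fibroblast markers and antigen presentation genes lie lowest, and the lists at the top hold few genes. The place of the fibroblast list is a description only. The rule limited its genes Col3a1 and Dcn, and Mfap5 reached the required level only through control cells.

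Some of the largest differences came from few cells. Spp1, which encodes osteopontin, had 177 UMIs in 9 of 42 control cells and 10 UMIs in 8 case cells, a log2 ratio of -4.87 (-5.96 to -3.96), and 5 control cells held 97.7% of its control UMIs. In all other kept cells Spp1 stood at 208 and 188 CPM. Igfbp5, an IGF binding protein, had 137 control UMIs, of which 121 came from 1 cell. The same cell held 75 of the 135 control UMIs of Dcn, the fibroblast proteoglycan decorin, and it held 0 UMIs of Cdh5 and of Sox17 but 12 of Vwf. Without it Dcn stood at 177 CPM in control against 49.6 CPM in case, and with 6 marker UMIs required its log2 ratio went from -2.94 to -0.68. Without that cell Igfbp5 stood at 47.2 against 24.0 CPM. Mfap5, a microfibril protein of the adventitia, was spread over 19 control cells, with 198 and 22.3 CPM. Col3a1 was found in 34 control cells and stood at 666 and 277 CPM. Fibroblast and smooth muscle genes made up more of the UMIs in the rest of both libraries, and their part in these differences was not tested.

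Nusap1, a protein of the mitotic spindle, had 12 UMIs in 2 control cells and 181 UMIs in 7 case cells, and 1 case cell held 62 of them. An Mki67 UMI was held by 1 of these 7 case cells, and by 5 of all 106 case cells. Ccl21, a chemokine of lymphatic ECs, had 0 UMIs in control and 144 in case, all in 1 cell, which makes the level at least 29.0-fold higher in case against a floor of 3 UMIs in the control sum. That cell of 3704 UMIs held all 7 lymphatic genes listed, with 32 UMIs of Lyve1 and 50 of Mmrn1, and 0 of Vwf, Fn1 and Cytl1. Mmrn1, which lymphatic ECs share with platelets and some blood vessel ECs, was found in 14 control and 29 case cells and stood at 147 and 402 CPM (log2 ratio 1.45, 1.01 to 1.91). Prox1, the regulator of lymphatic identity, had UMIs in 2 control and 4 case cells.

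The remaining named genes had no group of their own. Lower in case were Plac8 (329 and 73.6 CPM), Wfdc1 (278 and 63.3 CPM), Tmem176a (173 and 44.5 CPM) and Tm9sf3 (181 and 53.1 CPM). An entry for the small nuclear RNA 7SK was also lower (184 and 37.7 CPM). Another entry named 7SK was higher in case, at 110 and 154 CPM. Rgs5, a regulator of G protein signalling best known from pericytes, stood at 275 and 101 CPM, while in all other kept cells it reached 1.54 and 2.93 CPM. The other pericyte markers had at most 25 UMIs in a library. Ifi27l2b was higher in case, at 42.5 and 159 CPM, a log2 ratio of 1.91 that became 0.54 with 6 marker UMIs required.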

How the data were processed

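Single-cell RNA was measured in 1 control and 1 case library. The authors deposited UMI counts per gene (32623 genes) and barcode, made with Cell Ranger 3.1.0 per the matrix header, and the submitters' processing notes name Rnor_6.0 and Seurat. Barcodes were assigned to libraries by the number of barcodes per suffix, which matches the numbers in the study's methods (5656 case, 3321 control), and whether counts were down-sampled when the libraries were joined is not given in the sources used here. The cells and gene lists were chosen with earlier results of these data known.

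UMIs were summed over cells per library. CPM has exact Poisson intervals, ratios have exact binomial intervals and shares have Clopper-Pearson intervals, all at 95% and for counting error only. A count of 0 was set to 3 in ratios. Genes were compared at a mean of at least 100 CPM and 20 UMIs, and 2-fold was the size used. No test was run. Depth was 24968329 UMIs in control and 28232614 in case. Shares at 1000 UMIs are exact expectations. Genes named were those of the rule, the 4 most abundant of each list and its members past 2-fold, the 10 largest differences in each direction of both comparisons, and the 15 highest against other cells. Of these, the text gives those that its lists call for. Scrublet marked 16 of 2244 control and 6 of 4947 case cells, too few for a working call, and none of the 148, so doublets were left in. Barcodes without an EC call were used only as the rest. Python 3.11.15, numpy 2.4.6, pandas 2.3.3, scipy 1.17.1, scanpy 1.11.5, scikit-learn 1.9.0, R 4.3.3 and edgeR 4.0.16 (TMM factors only) were used, and the steps were tested on simulated data. Alternatives covered cell limits, doublets, depth, scaling, cell weighting and the level required. The listed genes Ackr1, Car4, Cd36, Col1a2, Ctgf, Hba-a1, Hspa1a, Hspg2, Pecam1, Ptgis and Trbc2 were not analysed here. A member of the lists is not reported here.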

Additional observations from a re-analysis of the deposited data

Results flagged for a closer look

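For 7 genes the ratio of ECs without over ECs with Plvap or Emcn was past 2-fold in opposite directions in the 2 libraries, with counting intervals that left out 0. The difference between the libraries was not tested, and the control library held only 11 ECs with Plvap or Emcn. Lower in control and higher in case without Plvap and Emcn were the adhesion molecule gene Vcam1 (log2 ratios -1.74 and 2.04), Cx3cl1 (-1.24 and 1.90), the chemokine gene Cxcl10 (-1.10 and 1.62), Gprc5a (-1.22 and 1.63), the imprinted gene Peg3 (-1.01 and 2.17) and Cldn5 (-1.21 and 1.65), a gene of the rule itself. LOC108348061 was the reverse, at 2.41 in control and -1.02 in case. For Vcam1 the values behind this were 323 and 525 CPM in cells without Plvap and Emcn and 1076 CPM (91 UMIs in 7 cells) and 128 CPM (50 UMIs in 20 cells) in ECs with Plvap or Emcn.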

How the results depend on the processing

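Of the pairs of a count or share with an alternative, 75 stayed within 1.5 times the count, or within the interval of the share, and 15 moved. Requiring 6 marker UMIs from 3 genes left 63 case cells. At 1000 UMIs per cell the share without Plvap and Emcn was 90.71% in control and 73.38% in case. Case against control, TMM factors gave 139 genes higher and 56 lower, a required level of 50 CPM gave 139 and 220, and one of 200 CPM gave 35 and 42. Without against with Plvap or Emcn, genes higher in both libraries were 119 when 1 UMI of Plvap and Emcn was allowed, 121 at 50 CPM, 32 at 200 CPM and 105 with the highest cell of each gene left out, and genes lower in both were 66 with medians set to 0 and 44 at 200 CPM. Leaving out the highest cell of each gene, the shared barcodes and the cells with 3 or more lymphatic genes were chosen after seeing the data. With the highest cell left out, Ccl2 turned in control without against with Plvap or Emcn, to 0.26. Ccl21 had no UMIs left without its 1 cell. Of 38 named genes past 2-fold between libraries, 24 stayed past it under every alternative run, and of 40 named genes past 2-fold without against with, 31 did. With 6 marker UMIs Dcn fell to -0.68, Adm to 0.35, Ifi27l2b to 0.54 and Flt1 to 0.80. No replicate could be left out, and the small control groups of 42 and 11 cells limit every value. No paired analysis was possible because each group has 1 library.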
